A study of Rattus norvegicus with 9 samples.

Results

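Protein phosphatases remove phosphate groups from proteins, and 91 of their genes were described in the cerebral cortex of adult control rats. They were the probes whose platform gene symbol begins with Ppp1 to Ppp6 (catalytic and regulatory subunits of the serine and threonine phosphatases), with Ptpn or Ptpr (non-receptor and receptor-type tyrosine phosphatases), or with Dusp and a digit (dual-specificity phosphatases). Ppp1r1b, Ptpro, Ptprz1, Dusp1 and Dusp6 were left out by name. The rule gave 92 of the 22517 probes on the array, and 92 of the 10687 probes that carry a gene symbol. Only Dusp8 had 2 probes. By family, 3 probes belong to catalytic and 24 to regulatory subunits of protein phosphatase 1 (PP1), 13 to protein phosphatase 2A (PP2A), 4 to calcineurin and 8 to PP4, PP5 and PP6. A further 14 are non-receptor tyrosine phosphatases, 9 receptor-type ones with the associated protein Ptprcap, and 17 dual-specificity phosphatases.

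The animals were 6 male and 3 female Sprague-Dawley rats of 60 days. All 9 were non-irradiated controls in work on cortical dysplasia after irradiation of the parent animals, and irradiated offspring were not analysed here. Cortex alone was homogenised, so each value is an average over all cell types of the tissue, and 1 Illumina bead array was hybridised per animal. Sex was the one labelled property that differed, and each sample title also carries 1 of 3 consecutive numbers that start at 120. The labels leave these title numbers unexplained, and each covers 2 males and 1 female. Animals are numbered within sex, and the numbers are names only.

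Serine and threonine phosphatases work through a few catalytic subunits that many regulatory subunits direct to particular substrates and places in the cell. In neurons, PP1 and the calcium- and calmodulin-dependent phosphatase calcineurin oppose protein kinases at synapses and take part in long-term depression. Tyrosine phosphatases act on growth factor receptors, Src family kinases and synaptic adhesion, and the dual-specificity phosphatases remove both phosphates of MAP kinases in many cases.

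Mean array intensity was 183.6 to 185.4 on the 3 dimmest arrays (male 2, male 4 and female 2) and 212.2 to 238.8 on the other 6. Dimmest refers to this mean alone. By median intensity, female 3 was lowest (47.6), and male 2 (51.2) lay above female 3, male 3 (49.8) and male 6 (50.1). Levels below are log2 intensities after background correction with an offset and quantile normalization, and levels of different probes are not comparable. Detection meant a level over the 25th percentile of all probes on that array. Of the listed markers, all 7 measured ones of excitatory neurons, all 8 of interneurons and all 8 of astrocytes were detected on every array. Markers of tissue that cortex need not hold were also measured, and 9 striatal markers were detected on every array. So were 84.9% of all probes with a symbol, so these counts alone do not show which cells or tissues were present. The mean log2 level of the 4 choroid plexus markers detected on every array was 8.45 in male 3 and 7.30 in male 2, against 6.13 to 6.57 in the other 7 animals.

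Of the 92 probes, 79 (85.9%) were detected on all 9 arrays, close to the 84.9% of all probes with a symbol, and 57.7% of all probes were. A percentile threshold ranks probes within an array and does not itself show signal. Only Ppp1r17 was detected on fewer than 3 arrays, on 1 of 9, and was not tested, so 91 probes entered the tests. All 3 catalytic subunits of PP1, all 13 PP2A probes and all 8 probes of PP4 to PP6 were detected on every array. Of the 92 probes, 65 (70.7%) lay above the array median on all 9 arrays, against 65.6% of all probes with a symbol and 42.0% of all probes. Among the 65 were 6 of the 14 non-receptor tyrosine phosphatases. The 9 probes that lay below the array median on every array were those of Dusp4, Dusp16, Ppp1r17, Ppp1r27, Ppp3r2, Ptpn9, Ptpn22, Ptprcap and Ptprv. They are 9.78% of the 92, and the matching share of all probes was not counted. Ppp3r2 encodes the calcineurin B subunit of testis (log2 sex difference, male minus female, 0.05 ± 0.05 (SE)), Ptpn22 a phosphatase of lymphocytes and Ptprcap a protein bound to the leukocyte phosphatase CD45. The offset of 50 understates fold changes of such dim probes.

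Of the PP1 catalytic genes, Ppp1cb varied most between animals. Ppp1cb, the beta isoform, had log2 levels of 10.50, 10.72 and 11.16 (lowest, median and highest of 6) in males, against 10.94, 11.08 and 10.82 in females 1, 2 and 3. The sexes overlapped, and the SD within sex was 0.26. Its highest levels were those of the 3 dimmest arrays. Ppp1cc, the gamma isoform, had log2 levels of 9.37, 9.57 and 9.68 in males, against 9.78, 9.73 and 9.58 in females, and its log2 difference (male minus female) was -0.16 ± 0.07 (SE) with a 95% interval of -0.32 to 0.00. Ppp1ca, the alpha isoform, had levels of 9.98, 10.12 and 10.26 in males, against 10.17, 9.98 and 10.06 in females, so that the sexes overlapped. No sex difference of these genes passed the adjusted test given below.

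**Figure D1:**
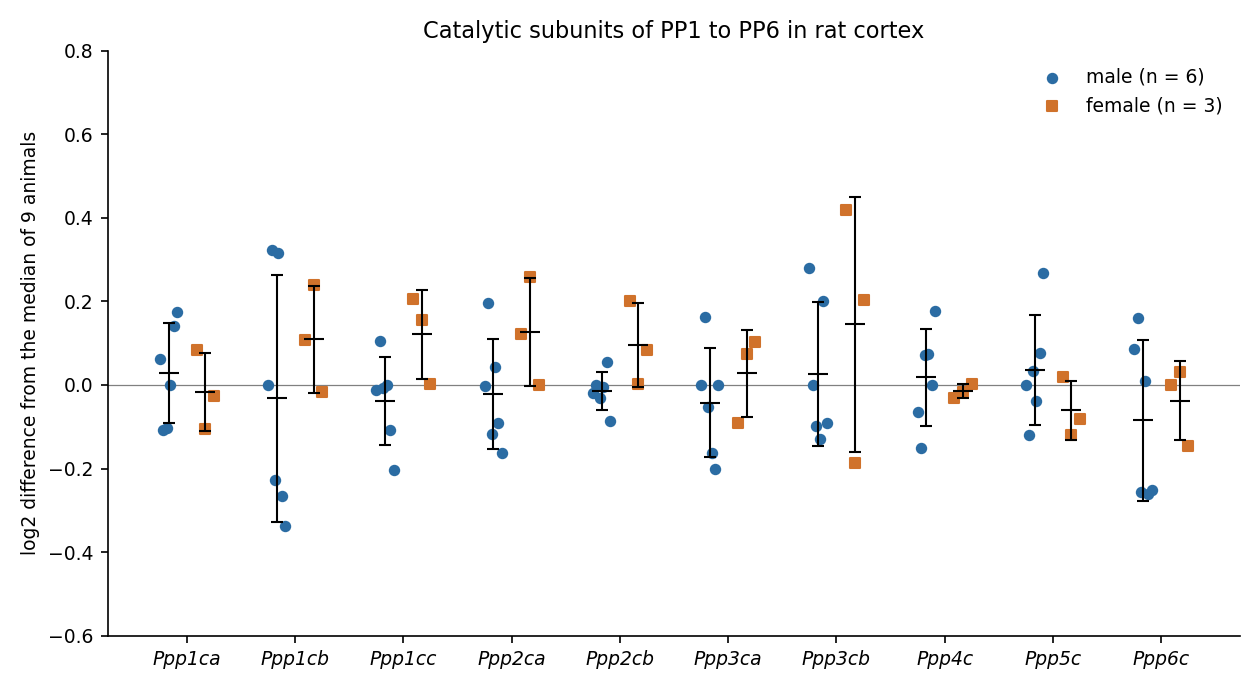
Log2 level of each PP1 to PP6 catalytic subunit gene in each animal, as the difference from that gene's median over 9 animals (y axis), with males left and females right of each tick; bars are means ± SD. Ppp1cb spans the widest range in males, 10.50 to 11.16 as levels, and males and females overlap for every gene shown.

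The 2 largest SDs within sex of any phosphatase probe detected on every array were those of the PP1 regulatory genes Ppp1r14a and Ppp1r10. Ppp1r14a encodes CPI-17, an inhibitor of PP1 that acts when phosphorylated by protein kinase C. Its log2 levels were 8.65, 9.41 and 9.90 in males, against 9.12, 9.62 and 9.42 in females, with an SD within sex of 0.39. Male 5 was the lowest animal and male 3 the highest. Ppp1r10, which encodes the nuclear PP1 targeting subunit PNUTS, had levels of 7.29, 7.54 and 8.21 in males, against 7.68, 7.30 and 7.63 in females (SD within sex 0.30); male 6 was the highest animal. Ppp1r9b encodes spinophilin, which holds PP1 in dendritic spines, and had levels of 7.03, 7.36 and 7.70 in males, against 7.26, 7.12 and 7.50 in females. Male 6 and male 5 were its highest animals. Ppp1r16a, which encodes the myosin phosphatase targeting protein MYPT3, had an SD within sex of 0.21, and Ppp1r12a, which encodes the targeting subunit MYPT1 of myosin phosphatase, 0.20. Ppp1r8, which encodes the nuclear PP1 inhibitor NIPP1, varied less (SD within sex 0.06).

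**Figure D2:**
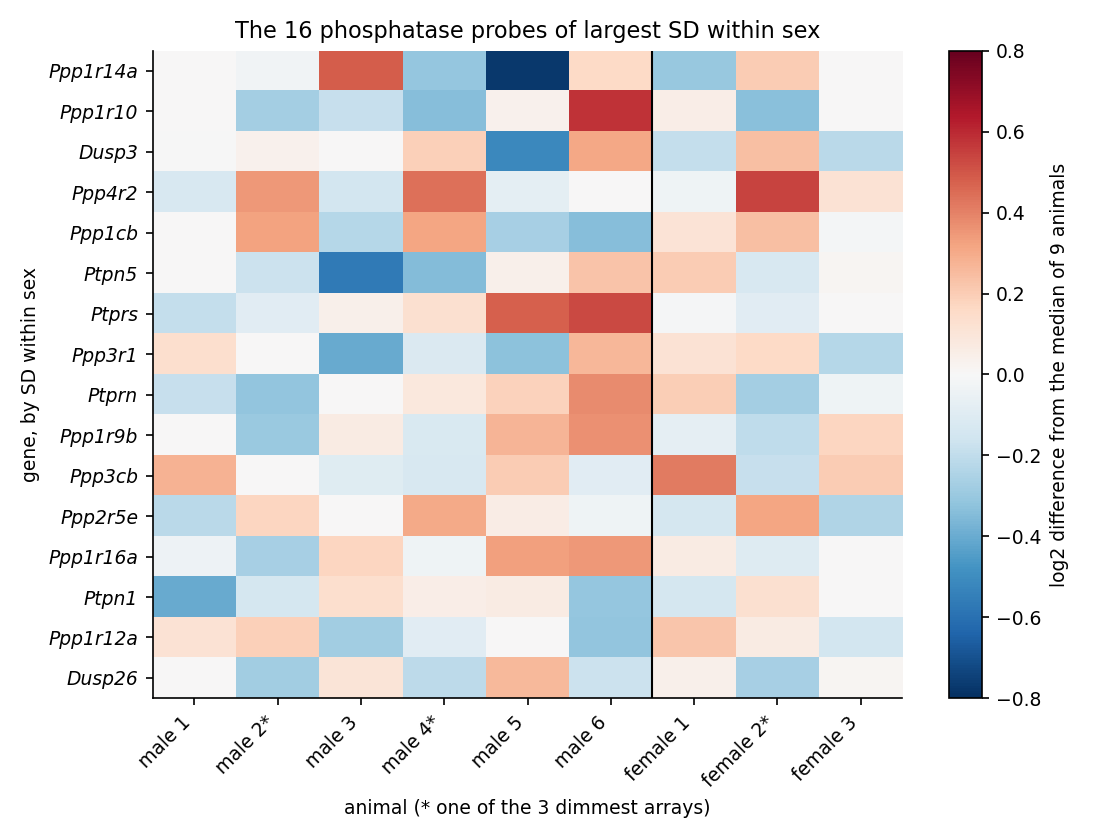
Log2 difference of each animal from the median of 9 animals (colour) for the 16 phosphatase probes of largest SD within sex (rows, largest at the top), with males left of the line and females right of it and the 3 dimmest arrays starred. Ppp1r14a is lowest in male 5 (8.65) and Ppp1r10 highest in male 6 (8.21), and Ppp4r2 and Ppp1cb are high on the starred arrays.

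The sequences around the annotated start of the 4 genes of largest SD and of Ppp1cb are shown because these genes are among those that varied most between animals. Each is 300 bases from RefSeq on build GRCr8, 5′ to 3′ on the strand of the gene. Capitals mark the GC box GGGCGG, the CCAAT box, the TATA box TATAAA and TGACG, the first 5 bases of the cyclic AMP response element TGACGTCA, each on either strand. They lie at chr1:93713852-93714151 on the plus strand (Ppp1r14a), chr20:2842369-2842668 on the minus strand (Ppp1r10), chr10:87431986-87432285 on the minus strand (Dusp3), chr4:135010669-135010968 on the plus strand (Ppp4r2) and chr6:29712786-29713085 on the minus strand (Ppp1cb).
Ppp1r14a: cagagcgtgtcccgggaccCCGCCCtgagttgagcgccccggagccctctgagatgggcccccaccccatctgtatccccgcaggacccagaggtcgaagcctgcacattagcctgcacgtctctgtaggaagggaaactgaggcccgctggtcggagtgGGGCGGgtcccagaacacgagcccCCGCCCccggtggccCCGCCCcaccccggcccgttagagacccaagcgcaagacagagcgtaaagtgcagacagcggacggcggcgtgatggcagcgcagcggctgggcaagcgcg
Ppp1r10: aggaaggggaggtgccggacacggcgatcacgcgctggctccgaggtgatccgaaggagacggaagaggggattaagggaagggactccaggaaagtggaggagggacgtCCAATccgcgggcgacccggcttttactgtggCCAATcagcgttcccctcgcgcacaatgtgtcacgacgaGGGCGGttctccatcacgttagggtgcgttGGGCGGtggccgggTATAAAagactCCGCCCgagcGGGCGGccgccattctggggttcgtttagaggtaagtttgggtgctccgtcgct
Dusp3: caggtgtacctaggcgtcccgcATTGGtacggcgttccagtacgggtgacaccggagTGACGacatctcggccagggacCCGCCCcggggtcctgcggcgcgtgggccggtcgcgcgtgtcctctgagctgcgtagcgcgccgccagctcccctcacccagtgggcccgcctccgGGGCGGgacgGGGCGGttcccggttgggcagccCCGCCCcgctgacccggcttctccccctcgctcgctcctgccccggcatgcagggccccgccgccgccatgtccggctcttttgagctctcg
Ppp4r2: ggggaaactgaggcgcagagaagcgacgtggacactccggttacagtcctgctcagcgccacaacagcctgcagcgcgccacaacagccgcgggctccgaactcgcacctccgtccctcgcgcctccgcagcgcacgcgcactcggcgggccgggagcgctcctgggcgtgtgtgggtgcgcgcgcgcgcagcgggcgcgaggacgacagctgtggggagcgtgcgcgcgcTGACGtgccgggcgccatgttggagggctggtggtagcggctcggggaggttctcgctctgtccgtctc
Ppp1cb: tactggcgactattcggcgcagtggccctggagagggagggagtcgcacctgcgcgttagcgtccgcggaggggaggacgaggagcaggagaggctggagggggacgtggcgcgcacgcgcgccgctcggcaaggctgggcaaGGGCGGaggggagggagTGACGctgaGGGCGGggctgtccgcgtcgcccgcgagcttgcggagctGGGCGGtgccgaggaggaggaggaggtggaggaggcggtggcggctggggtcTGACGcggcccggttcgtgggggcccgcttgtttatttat
All 5 are rich in G and C, at 62.7% to 74.3% of the bases. Ppp1r14a, Ppp1r10 and Dusp3 held 4 GC boxes each, Ppp1cb held 3 and Ppp4r2 held 0. The TATA box occurred in the Ppp1r10 sequence alone of the 5. RefSeq promoters were matched for 78 of the 91 genes, and their median G and C content was 67.0%, against 51.7% over 33469 promoters of the same length. A GC box was present in 50 of the 78 (64.1%), against 33.1% of all promoters, a CCAAT box in 33.3% against 37.5%, and TATAAA in 6.41% against 14.2%. The full element TGACGTCA, which overlaps the marked TGACG, was present in 5 of the 78 (6.41%), against 1.83% of all promoters: Dusp11, Ppp1r15a, Ppp2ca, Ppp2r2d and Ptprs. No share was computed over promoters of the 10412 genes named on the array, or over promoters of like G and C content. The differences are therefore not shown to be particular to phosphatase genes. A match describes the letters and not a binding site.

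The PP2A genes encode a catalytic subunit, a scaffold and the regulatory B subunits that choose substrates. Their median SD within sex was 0.13, against 0.13 for all phosphatase probes detected on every array. Ppp2ca and Ppp2cb encode the catalytic isoforms. Ppp2ca had log2 levels of 11.57, 11.69 and 11.93 in males, against 11.86, 11.99 and 11.73 in females, and a log2 difference of -0.15 ± 0.08 (SE). Ppp2cb had levels of 11.00, 11.07 and 11.14 in males, against 11.28, 11.09 and 11.17 in females, and a log2 difference of -0.11 ± 0.05 (SE) with a 95% interval of -0.23 to 0.01. The sexes overlapped for both genes. The scaffold genes Ppp2r1a and Ppp2r1b differed by 0.02 ± 0.08 (SE) and -0.08 ± 0.06 (SE). Of the B subunits, Ppp2r5e had the largest SD within sex (0.22), with levels of 9.70, 9.94 and 10.22 in males, against 9.77, 10.23 and 9.67 in females; female 2, male 4 and male 2, the dimmest arrays, were its highest animals.

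Calcineurin consists of a catalytic A subunit (Ppp3ca or Ppp3cb) and the calcium-binding B subunit (Ppp3r1). Ppp3ca had log2 levels of 12.31, 12.48 and 12.67 in males, against 12.42, 12.58 and 12.61 in females, and an SD within sex of 0.12. Ppp3cb varied more (SD within sex 0.22), with levels of 9.60, 9.69 and 10.01 in males, against 10.15, 9.55 and 9.94 in females. Females alone held both the highest and the lowest animal for Ppp3cb, female 1 and female 2. Ppp3r1 had levels of 10.69, 11.04 and 11.36 in males, against 11.21, 11.25 and 10.87 in females, with male 3 lowest and male 6 highest. The log2 sex differences were -0.07 ± 0.08 (SE) for Ppp3ca, -0.12 ± 0.13 (SE) for Ppp3cb and -0.09 ± 0.15 (SE) for Ppp3r1, and the 95% intervals of the last 2 were -0.41 to 0.18 and -0.42 to 0.24. Without female 1 the Ppp3cb difference was 0.02.

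PP4, PP5 and PP6 are related phosphatases with roles in DNA repair, chaperone-bound signalling and the cell cycle. Their catalytic genes differed by 0.03 ± 0.07 (SE) (Ppp4c), 0.10 ± 0.08 (SE) (Ppp5c) and -0.05 ± 0.11 (SE) (Ppp6c) in log2 level between the sexes. Ppp6c had levels of 8.71, 8.85 and 9.14 in males, against 8.97, 9.01 and 8.83 in females. The variable gene of this group was Ppp4r2, a regulatory subunit of PP4, with levels of 8.98, 9.09 and 9.57 in males, against 9.09, 9.67 and 9.24 in females (SD within sex 0.27). Its 3 highest values were again those of the dimmest arrays. The Ppp4r2 difference was -0.14 ± 0.16 (SE) and became 0.03 without female 2. Ppp4r3a, another PP4 regulatory subunit, differed by -0.10 ± 0.06 (SE).

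The variable non-receptor tyrosine phosphatases were Ptpn5 and Ptpn1. Ptpn5 encodes STEP, the striatal-enriched phosphatase that acts on NMDA receptor subunits and ERK. Its log2 levels were 8.18, 8.65 and 8.97 in males, against 8.94, 8.61 and 8.76 in females; male 3 was lowest and male 6 highest. Striatal markers did not follow the same order: the mean log2 level of the 9 striatal markers was 8.13, 8.36 and 8.95 (lowest, median and highest) in males, against 8.36, 8.77 and 8.22 in females, lowest in male 3 but highest in male 2. Ptpn1 encodes PTP1B, a phosphatase of the insulin and leptin receptor pathways, and had levels of 7.18, 7.54 and 7.72 in males, against 7.44, 7.71 and 7.58 in females, with male 1 lowest. Ptpn11 encodes SHP-2, which promotes Ras signalling, and differed by -0.14 ± 0.10 (SE) in log2 level. Ptpn2 (TC-PTP) differed by 0.07 ± 0.09 (SE), and Ptpn6 (SHP-1, a phosphatase of blood cells) by 0.03 ± 0.07 (SE). Ptpn14, a phosphatase with a FERM domain, averaged 6.08 ± 0.08 (SD, n = 6) in males and 5.92 ± 0.08 (SD, n = 3) in females and was detected on 8 of 9 arrays. Ptpn21, another phosphatase with a FERM domain, differed by 0.12 ± 0.07 (SE).

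The receptor-type genes included the synaptic adhesion receptors Ptprf (LAR) and Ptprs (PTP sigma). Ptprf had log2 levels of 6.69, 6.83 and 7.13 in males, against 6.44, 6.66 and 6.76 in females, and its log2 difference of 0.26 ± 0.10 (SE) was the largest of any phosphatase probe between the sexes. Ptprs had levels of 7.65, 7.93 and 8.38 in males, against 7.84, 7.76 and 7.85 in females. For both genes male 5 and male 6 were the 2 highest animals and the sexes overlapped. Ptprn and Ptprn2 encode IA-2 and IA-2 beta, receptor-like proteins of dense-core vesicles that lack phosphatase activity toward the usual substrates. Ptprn had levels of 8.75, 9.11 and 9.44 in males, against 9.26, 8.80 and 9.03 in females (SD within sex 0.25), while Ptprn2 and Ptpre differed by -0.04 ± 0.06 (SE) and 0.02 ± 0.06 (SE) between the sexes. Ptpra, Ptprb, Ptprc and Ptprd, and Ppp3cc of calcineurin, had no probe under those symbols and were not analysed here.

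Dusp3 was the most variable dual-specificity gene. It encodes VHR, a small phosphatase of ERK and JNK, and had log2 levels of 9.08, 9.61 and 9.91 in males, against 9.41, 9.84 and 9.38 in females (SD within sex 0.28). Male 5 was lowest and male 6 highest. Dusp26, a phosphatase of neural and endocrine tissue, had levels of 7.03, 7.23 and 7.57 in males, against 7.35, 7.05 and 7.33 in females, with the dimmest arrays lowest. The ERK phosphatases of the nucleus, Dusp4 and Dusp5, were detected on 5 and on all 9 arrays, and they differed by -0.01 ± 0.07 (SE) and -0.02 ± 0.07 (SE) between the sexes. Dusp12 differed by -0.12 ± 0.06 (SE). The 2 probes of Dusp8, a phosphatase of JNK and p38, had a Pearson correlation over the 9 animals of -0.13, as a description. One, ILMN_1366775, had levels of 7.74, 7.91 and 8.18 in males, against 7.96, 7.83 and 7.96 in females, and the other, ILMN_1352481, 6.14, 6.19 and 6.22 in males, against 6.30, 6.23 and 6.22 in females. The sexes overlapped for the first probe and did not for the second, where the highest male and the lowest female value both round to 6.22.

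No phosphatase probe passed the test between the sexes. With limma, 0 of 91 had an adjusted p under 0.05, as had 0.0% of the 18531 tested probes, and every adjusted p of these 91 rounded to 0.9999 or more. At an unadjusted p under 0.05, limma gave 3 of 91 (3.3%), against 2.37% of all tested probes: Ptprf and Ptpn14 with higher male averages (1.19% of all tested probes did so) and Ppp1r8 with a lower one (1.18%). At the threshold of 0.001 that the study names, the count was 0 of 91, against 0.0054% of all. The count at 0.05 was 1 without female 1, 5 without female 2, 6 without female 3, 7 without male 2 and 5 without the 3 dimmest arrays, so it changed with single animals. Marker lists also leaned with sex. Males averaged lower for 12 of 12 immediate early genes, 8 of 8 interneuron, 8 of 9 myelin and 6 of 7 excitatory neuron markers. They averaged higher for 9 of 9 meningeal fibroblast, 7 of 7 tested choroid plexus, 8 of 9 microglial and 4 of 5 blood markers. The other cell type and region lists leaned less. The immediate early list includes Dusp1 and Dusp6, which were left out of the phosphatase probes by name. Over all tested probes, 49.7% had the higher male average. At an unadjusted p under 0.05, limma gave 4 immediate early genes (Dusp6 among them) and 1 interneuron, 1 meningeal, 2 microglial and 1 blood marker. The part of these lists in the sex differences was not tested. Ppp1r8 had levels of 6.64, 6.78 and 6.82 in males, against 6.95, 6.84 and 6.89 in females, without overlap, and a log2 difference of -0.14 ± 0.05 (SE). The sexes did not overlap for 2 of 91 probes (2.2%), against 1.5% of all tested probes; the other was ILMN_1352481 of Dusp8.

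Male averages were higher for 41 and lower for 50 of the 91 probes, with a median log2 difference of -0.007, against -0.00035 over all tested probes. The 41 are 45.1% of the 91, and 49.7% of all tested probes had the higher male average. By family the medians lay between -0.14 for the 3 PP1 catalytic genes and 0.02 for the 9 receptor-type probes. PP2A probes were lower in male average in 9 of 13, PP1 regulatory probes in 15 of 23, PP1 catalytic in 2 of 3 and calcineurin in 3 of 4. The other families did not lean that way. The male average was lower in 3 of 8 probes of PP4 to PP6 and 7 of 17 dual-specificity probes. Among tyrosine phosphatases it was lower in 7 of 14 non-receptor and 4 of 9 receptor-type probes. The intervals bound what could have been missed on this log2 scale only, where the offset of 50 understates differences of dim probes. The 95% interval of the sex difference lay within 0.25 log2 units of 0 for 50 of 91 probes (54.9%, against 70.7% of all tested). It lay within 0.5 for 88 (96.7%, against 96.4%). The exceptions at 0.5 were Ppp1r14a (-0.55 to 0.46), Ptpn5 (-0.51 to 0.18) and Ptprs (-0.15 to 0.52).

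**Figure D3:**
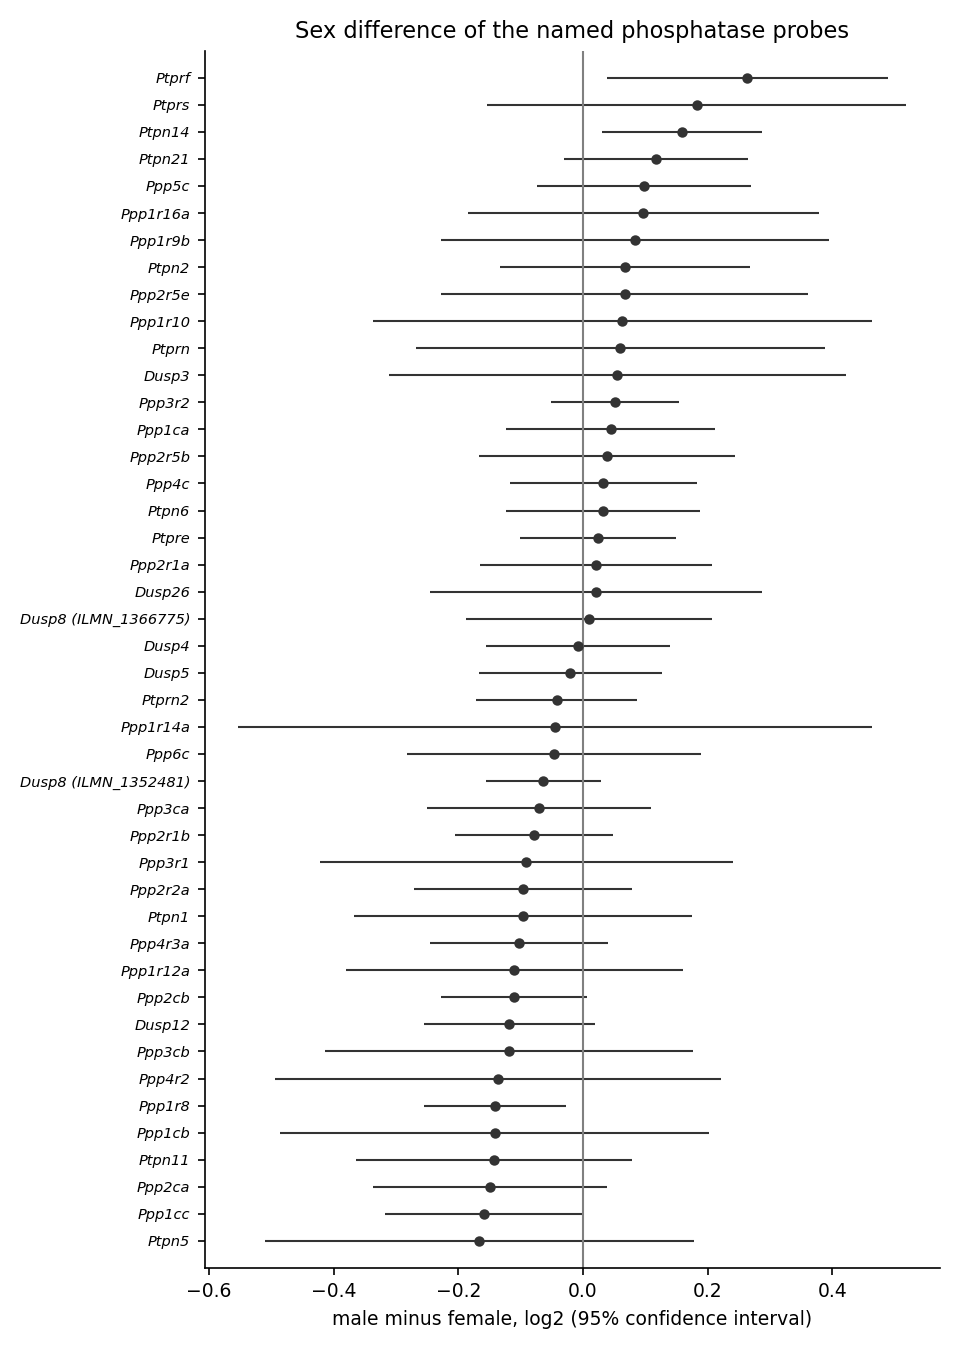
Log2 difference, male minus female (x axis), with its 95% confidence interval from limma, for the 44 named phosphatase probes (rows, highest difference at the top; n = 6 males and 3 females). The intervals of Ptprf, Ptpn14 and Ppp1r8 leave out 0 without adjustment, that of Ppp1cc ends next to it, and that of Ppp1r14a is wide (-0.55 to 0.46).

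Across the 3 title numbers, 0 of 91 probes passed limma's F test after adjustment, with sex as a covariate, as did 0.0% of all tested probes. The smallest adjusted p of a phosphatase probe was 0.366, for Ptprf. At an unadjusted p under 0.05, limma gave 13 of 91 (14.3%), against 9.56% of all tested probes and 1154 of the 10598 tested probes with a symbol. At 0.001 it gave 0, against 0.313% of all tested probes. Averages are given for the first, the second and the third title number in that order (SD, n = 3 each). Ptprf averaged 6.65 ± 0.19, 6.77 ± 0.09 and 6.97 ± 0.19, Ppp1r9b 7.21 ± 0.15, 7.24 ± 0.14 and 7.60 ± 0.10 and Ptprs 7.75 ± 0.09, 7.87 ± 0.11 and 8.18 ± 0.29, each highest for the third. Ptpn5 averaged 8.75 ± 0.19, 8.39 ± 0.22 and 8.83 ± 0.12, lowest for the second. Ppp1cc averaged 9.68 ± 0.11, 9.63 ± 0.09 and 9.47 ± 0.10 and Ppp1r12a 6.67 ± 0.05, 6.39 ± 0.17 and 6.34 ± 0.16, lowest for the third. Ppp2r2a, a B subunit of PP2A, averaged 9.51 ± 0.13, 9.30 ± 0.07 and 9.46 ± 0.03. The other 6 probes were those of Ppp2r5b, Ppp6c, Ppp3cb, Ptpn1, Ppp1r10 and Ppp2r5c. Of the 13, 5 were highest for the first title number, 2 for the second and 6 for the third. The dimmest arrays were spread unevenly over the titles, 1 of 3 for the first, 2 of 3 for the second and 0 of 3 for the third, and without these 3 arrays the count was 4. The part of array intensity in these counts was not tested.

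Some phosphatase probes differed between the 3 arrays of lowest mean intensity and the other 6, a split that median intensity does not follow. The 3 dimmest arrays did not overlap the other 6 in 20 of 91 probes (22.0%), against 14.1% of all tested probes and 17.7% of those with a symbol. In 10 probes the dimmest arrays were all higher (11.0%, against 7.09% of all tested) and in 10 all lower (11.0%, against 7.01%). Ppp4r2 lay at 9.47 to 9.67 on the 3 dimmest arrays and 8.98 to 9.24 on the other 6. Ppp1cb lay at 11.08 to 11.16 on the 3 dimmest arrays and 10.50 to 10.94 on the other 6. Ppp2r5e and Ptprr, an ERK phosphatase, were also higher on the dimmest arrays, by 0.36 and 0.29 on average on the log2 scale. On the low side, Ppp1r10 lay at 7.29 to 7.36 on the 3 dimmest arrays and 7.45 to 8.21 on the other 6. Ppp1r9b lay at 7.03 to 7.21 on the 3 dimmest arrays and 7.26 to 7.70 on the other 6, and Ppp6r1, a regulatory subunit of PP6, at 8.83 to 9.03 on the 3 dimmest arrays and 9.13 to 9.40 on the other 6. Ppp1r15a, whose product GADD34 directs PP1 to the translation factor eIF2 alpha, was also lower (log2 difference -0.30, dimmest minus other arrays).

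How many probes stood apart, and on which side, changed with the scaling. With scaling to the 75th percentile, 25 of 91 were higher on the dimmest arrays (32.4% of all tested probes were) and 15 lower (7.88%). In the authors' deposited series table the counts were 10 higher (8.13%) and 10 lower (8.04%). With no normalization between arrays 0 were higher (0.89%) and 25 lower (22.6%). For every probe the difference of the dimmest from the other arrays was 0.195 log2 units lower there than with percentile scaling, a shift common to all probes that carries no information on single genes. In all, 40 probes stood apart with percentile scaling (40.3% of all tested probes did), 20 in the series table (16.2%) and 25 with no normalization (23.5%). Ppp1r10, Ppp1r9b and Ppp6r1 averaged lower on the dimmest arrays with quantile normalization, percentile scaling, no normalization and in the authors' deposited series table. These genes are among those chosen for standing apart after quantile normalization. All settings start from the same intensities, and the series table nearly equals the quantile-normalized values, so they are not independent evidence.

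**Figure D4:**
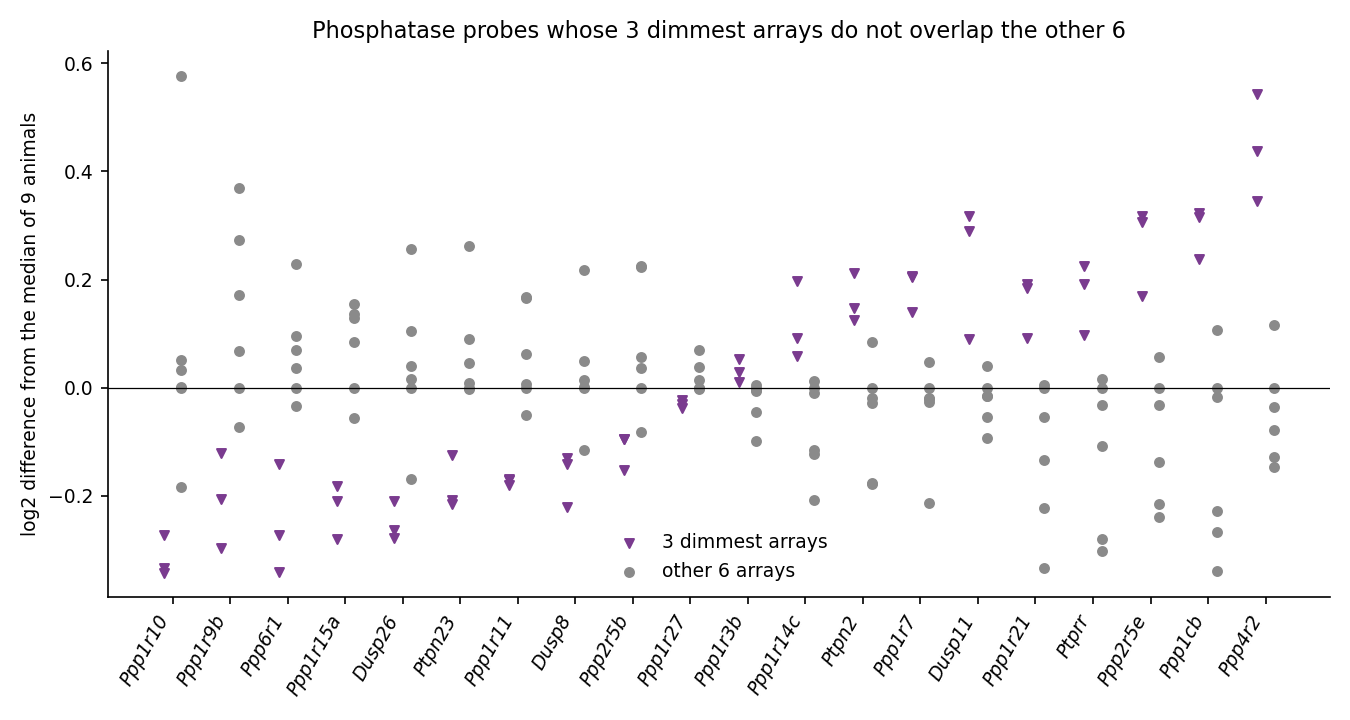
Log2 difference from the median of 9 animals (y axis) on the 3 dimmest arrays (triangles, left) and the other 6 (circles, right) for the 20 phosphatase probes in which they do not overlap, after quantile normalization. The probes run from Ppp1r10 (mean difference -0.40) to Ppp4r2 (0.49); the choice of probes fixes the separation.

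The mean correlation among the phosphatase genes was near 0. The mean pairwise Pearson correlation of the 78 genes detected on every array, over the 9 animals and on residuals from the sex means, was 0.0034, against 0.00083 over 8858 named genes. Of 3003 gene pairs, 2.96% correlated above 0.8 and 2.30% below -0.8, against 2.13% and 2.05% of all pairs. Family values ran from -0.13 for the 3 PP1 catalytic genes to 0.26 for the 4 calcineurin genes, and the calcineurin value was -0.08 once the title numbers were also removed. The 4 calcineurin genes include Ppp3r2, which lay below the array median on every array. On residuals from the sex means, r was -0.27 for Ppp3ca with Ppp3cb, 0.30 for Ppp3ca with Ppp3r1 and -0.05 for Ppp3cb with Ppp3r1. The genes share the same 9 arrays and their normalization. The median SD within sex was 0.13 for the 79 probes detected on every array, against 0.11 for all 13002 such probes and 0.12 for the named ones.

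Tests were run on 13 pairs of genes by exact permutation over 362880 pairings (two-sided, Benjamini-Hochberg adjusted over the 13). These pairs were chosen with earlier results of these data known, so their p-values are not those of pairs fixed in advance. Of the 13, 1 passed an adjusted p of 0.05: Ppp1r14a with Mog, a myelin marker. Mog had log2 levels of 9.22, 10.30 and 10.53 in males, against 10.21, 10.57 and 10.41 in females, and male 5 was lowest for both genes. Pearson's r was 0.88 (exact permutation p = 0.00173, adjusted p = 0.0225) and Spearman's rho 0.75 (exact permutation p = 0.0255, adjusted p = 0.202). Without males 5 and 3, the 2 animals farthest from the median of Ppp1r14a, r was 0.77 (exact permutation p = 0.0369, adjusted p = 0.259), so the adjusted call rests on those animals. Without male 5 alone r was 0.74 (exact permutation, adjusted p = 0.228), and without male 4 it was 0.87 (adjusted p = 0.052). Among the 6 brighter arrays r was 0.90 (exact permutation p = 0.00556). The mean log2 level of the 9 measured myelin markers was 8.60, 9.61 and 9.86 (lowest, median and highest) in males, against 9.52, 9.85 and 9.69 in females, lowest in male 5. In homogenised tissue, fewer oligodendrocytes and less of these RNAs per oligodendrocyte cannot be told apart.

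**Figure D5:**
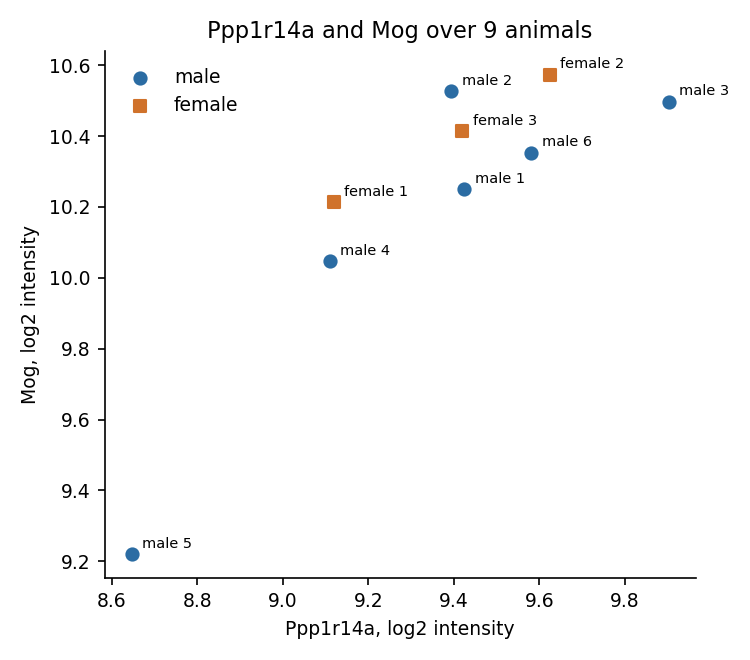
Log2 level of Ppp1r14a (x axis) against that of Mog (y axis) in each of the 9 animals, males as circles and females as squares. Male 5 lies lowest on both axes, at 8.65 and 9.22, and the other 8 animals lie at 10.05 or above on the Mog axis.

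The other 12 pairs did not pass (exact permutation, adjusted p = 0.136 to 0.988 for Pearson's r and 0.202 to 0.948 for Spearman's rho). Ppp1cb and Ppp1cc had the strongest of these, with r 0.74 (exact permutation p = 0.0209, adjusted p = 0.136) and rho 0.73 (exact permutation p = 0.0311). Among the 6 brighter arrays r was 0.88, and without Ppp1cb's 2 farthest animals, males 6 and 2, 0.59 (exact permutation p = 0.16). This pair passed the adjusted exact permutation test without female 1 (r 0.82) and among the brighter arrays. Ppp1ca ran the opposite way, with r -0.58 against Ppp1cb and -0.58 against Ppp1cc (exact permutation, adjusted p = 0.243 for each), and neither kept its size without males 6 and 5 (-0.06 and 0.05). Without female 1 the second reached -0.89 and passed. No pair of calcineurin subunits passed, with r -0.17 for Ppp3ca with Ppp3cb, 0.34 for Ppp3ca with Ppp3r1 and 0.0053 for Ppp3cb with Ppp3r1 (exact permutation, adjusted p = 0.72, 0.45 and 0.988; rho -0.03, 0.33 and -0.03). With sex and title number removed, r was -0.79 for Ppp3ca with Ppp3cb, 0.21 for Ppp3ca with Ppp3r1 and -0.59 for Ppp3cb with Ppp3r1. Without the 2 animals farthest from the median of the first gene, the 3 values were 0.02, 0.13 and -0.51. The PP2A catalytic isoforms had r 0.34. That value was 0.87 among the 6 brighter arrays (exact permutation p = 0.0236), 0.77 without female 2 and male 2 (exact permutation p = 0.0399) and -0.01 on residuals from the sex means. The correlations were -0.49 and -0.35 for Ppp2ca and Ppp2cb with the scaffold Ppp2r1a. Ptpn5 with the striatal gene Ppp1r1b had r 0.57, which was -0.0034 without males 3 and 4, 0.82 among the 6 brighter arrays and -0.13 with sex and title number removed. Dusp4 with Fos had r 0.57, which was 0.08 without female 1 and male 3 and 0.36 among the 6 brighter arrays. Dusp5 with Arc had r 0.34, which was 0.70 among the brighter arrays and 0.51 without males 1 and 2.

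The named genes most like the 4 most variable phosphatase genes over the 9 animals are given by Pearson correlation on residuals from the sex means, as a description. They were Tcf19 (0.94), Rabgef1 (0.94), Auh (0.93) for Ppp1r14a, Sympk (0.98), Kat5 (0.98), Gga1 (0.98) for Ppp1r10, Atox1 (0.97), Usp28 (0.96), Or1o11b (0.95) for Dusp3 and Zmym6 (0.99), Ncoa1 (0.98), Zfp655 (0.98) for Ppp4r2. Sympk, a protein of mRNA 3′ end processing, had log2 levels of 7.62 in male 6 and 7.24 or less in the other 8 animals, the same highest animal as Ppp1r10. Ncoa1, a nuclear receptor coactivator, had levels of 9.20 or more on the 3 dimmest arrays and 8.60 or less on the other 6, the same split as Ppp4r2. These genes were chosen for the highest correlation among 8858 genes, so the shared highest animal and the shared split follow from the choice.

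Partners and relatives of the phosphatases gave no call between the sexes either. Of 11 measured partners of calcineurin (NFAT family factors, RCAN inhibitors, calmodulin and anchoring proteins among them), 0 passed limma's adjusted test and 0 had an unadjusted p under 0.05, with a median log2 difference of 0.0061. Of 14 genes listed as partners of PP1 and PP2A, 0 passed, with a median log2 difference of -0.07. Only 1 of the 14 had an unadjusted p under 0.05, Spred1, with the lower average in males. Binding of its product to either phosphatase was not measured here. Of 22 tyrosine phosphatase partners, 0 passed and 2 had an unadjusted p under 0.05, the liprin Ppfia2 (-0.15 ± 0.06, SE) and the adhesion protein Cntn4 (-0.19 ± 0.08), both lower in male average. Of 34 genes of other phosphatase families, 0 passed and 2 had an unadjusted p under 0.05: Pdp1, the pyruvate dehydrogenase phosphatase (-0.40 ± 0.13), and the lipid phosphatase Mtmr4 (-0.19 ± 0.08). Over all tested probes, 2.37% had an unadjusted p under 0.05 between the sexes. Male averages were lower for 5 of the 11, 12 of the 14, 13 of the 22 and 23 of the 34. The same held for 9312 of the 18531 tested probes. Across title numbers 0 of these genes passed, and an unadjusted p under 0.05 was found for 0 of the 11, 1 of the 14, 3 of the 22 and 8 of the 34, against 9.56% of all tested probes.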

How the data were processed

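Cortex RNA of 9 rats was hybridised to 1 array each. The authors deposited per-sample tables of linear probe intensity, with no normalization stated. The authors also deposited a series table of log2 values for 15912 probes, whose correlation with the quantile-normalized log2 intensities was 0.99996 or more on each array. Scale and normalization were read from that match, no centring was seen, and column medians were 6.125 to 6.127. Software is not given in the sources used here.

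Intensities were corrected by normexp (offset 50), log2-transformed and quantile-normalized (limma 3.58.1, R 4.3.3). The tables carry no detection p-values, so detection was defined by the 25th percentile. Probes detected on 3 or more arrays (18531) entered lmFit and eBayes, with Benjamini-Hochberg adjustment over all of them. Comparisons were male minus female, and title numbers by F test with sex as a covariate. Number of arrays limits the precision. The platform annotation gave 10687 probes 1 symbol and the others none; symbols of the 91 genes were unchanged in the RefSeq table of GRCr8. Correlations used Python 3.11.15 and NumPy 2.4.6, each gene by its probe of highest mean level.

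The members, gene lists and pairs were chosen with earlier results of these data known. The rule for naming took the 10 lowest p-values by sex, the 8 lowest by title number, the 16 of largest SD within sex, catalytic subunits, role and pair genes, genes with 2 probes and the nearest genes of the 4 most variable. Ptprr, Ppp6r1, Ppp1r15a, Ppp2r5c, the genes with TGACGTCA, those under the array median on every array, the partner genes and Mog's list were named outside that rule after their values were seen. The tests were checked on simulated data. For limma these had independent noise for each probe, with no correlation between probes and no split by dim arrays. The check therefore does not cover those features of the real arrays. Alternatives are given in the closing section. 2 of 15 planned pairs had a gene with no probe.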

Additional observations from a re-analysis of the deposited data

Results flagged for a closer look

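Dusp12, a zinc-binding dual-specificity phosphatase, had a log2 level of 6.42 in male 5, below the next male at 6.54, while the highest male lay at 6.57. The gap took 0.76 of the range of the 6 males, above the limit of 0.625 for a sample far from the others. It was 1 of 44 named probes examined, and 1 group in 20 exceeds this limit by chance.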

How the results depend on the processing

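The counts of 0 after adjustment, between the sexes and across title numbers, held under all 19 alternatives run for each. The 3 phosphatase probes at an unadjusted p under 0.05 between the sexes became 1 with no normalization between arrays, 1 with 75th percentile scaling, 5 with array weights, 5 without the 3 dimmest arrays and 1 to 7 with single animals left out. The 13 across title numbers became 7 with a background floor of 64, 7 with no normalization and 4 without the 3 dimmest arrays. The mean pairwise correlation of the members, 0.0034, became 0.0229 without the 3 dimmest arrays, 0.0273 with percentile scaling and 0.227 with no normalization. The 20 probes in which the dimmest arrays stood apart became 40 with percentile scaling, an alternative chosen after the data were seen. Of the pairs, Ppp1r14a with Mog ranged over 0.743 to 0.925 with single animals left out and was 0.775 without its 2 farthest animals; Ppp1ca with Ppp1cc ranged over -0.887 to -0.337 and Ppp1cb with Ppp1cc over 0.624 to 0.855, which was 0.876 among the 6 brighter arrays. Ptpn5 with Ppp1r1b was 0.748 with no normalization and passed there. Where a value moved, the cause was not tested. Of 833 recomputed sex differences of the 44 named probes, 788 kept their sign and 0 passed. No paired analysis was possible because no label pairs a male with a female; the fit with title number as a block gave 4 probes at an unadjusted p under 0.05 between the sexes. The pair of Dusp4 and Fos had no value with the floor of 64, which made Dusp4 constant. Dim probes limit the rest: their fold changes are understated.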
